A study of Homo sapiens with 6 samples.

Results

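The amino acid transporter families SLC1, SLC3, SLC7, SLC36, SLC38 and SLC43 were taken as every protein-coding gene of the deposited table whose symbol begins with 1 of these 6 family names followed by A and a number. This gave 40 members among 58735 genes, of which 19951 were protein-coding: 7 of SLC1, 2 of SLC3, 13 of SLC7, 4 of SLC36, 11 of SLC38 and 3 of SLC43. The study compared cells labelled MG63, an established human osteosarcoma line, 48 h after they received either an siRNA that targets FUBP1 (3 samples, siFUBP1) or a control siRNA (3 samples, siMock), to look for genes downstream of FUBP1, a DNA- and RNA-binding protein. Poly-A RNA was sequenced, and reads were counted per gene. Both groups share the cell line and the transfection and differ by the siRNA, and the sources used here do not say which of the FUBP1 siRNAs of the study was sequenced or whether the 3 samples of a group came from separate cultures, so that p-values measure only the spread between these samples. In bulk RNA, fewer cells that express a gene cannot be told apart from less of its RNA per cell.

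Amino acids cross the plasma membrane on carriers with distinct substrates. The light chains of SLC7 exchange amino acids and reach the membrane bound to a heavy chain of SLC3, while SLC1 and part of SLC38 use the sodium gradient to load glutamate, small neutral amino acids or glutamine. The exchangers trade these internal amino acids for leucine and other essential amino acids, and many tumor cells raise this supply. SLC43A1 and SLC43A2 carry large neutral amino acids by facilitated diffusion, and SLC36 together with several SLC38 members moves amino acids out of lysosomes.

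Totals lay between 16309900 and 17484313 counts per sample, and 16116 genes passed edgeR's expression filter. FUBP1 had 237, 254 and 274 CPM (reads scaled to library size, with TMM factors) in the siMock samples and 44.3, 43.3 and 52.9 CPM in the siFUBP1 samples, a log2 fold change of -2.44 ± 0.09 (SE, adjusted p = 1.89e-17, edgeR). The label was set against marker genes. Of 10 osteosarcoma and mesenchymal markers, 5 had at most 5 reads in every sample: COL1A2 was at 0 in all 6 samples, COL3A1 had at most 2 reads, SPARC at most 5, ALPL at most 1 and SP7 at most 2. Among the others, VIM had 2312 to 2589 reads in siMock and 3146 to 3731 in siFUBP1, COL1A1 had 1692 to 2000 and 769 to 792, and RUNX2 had 6 to 8 and 39 to 97. TWIST1 had 5 to 44 reads and BGLAP 2 to 13. The epithelial keratin KRT8 had 28650 to 34970 reads in siMock and 16128 to 18157 in siFUBP1, and KRT18 had 10755 to 12282 and 7498 to 7888. EPCAM had 59 to 83 reads over all samples, CDH1 8 to 22 and KRT19 0 to 3. Thus COL1A2, COL3A1, SPARC, ALPL and SP7, which mark mesenchymal and bone-forming cells, were at or near 0 in both groups and go against the label, while VIM and COL1A1 of the same list were expressed. The cells are called here by their label only. The summed level of the 10 mesenchymal markers was 257 to 274 CPM in siMock and 237 to 262 CPM in siFUBP1, and that of the 5 epithelial markers 2524 to 2896 CPM against 1364 to 1495 CPM. The 5 blood cell markers summed to 3.90 to 4.52 and 2.19 to 3.61 CPM, and the 3 endothelial markers to 3.20 to 5.17 and 1.89 to 2.80 CPM. The part of these markers in the transporter results was not tested.

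Of the 40 members, 6 had no read in any sample (SLC1A6, SLC7A3, SLC7A10, SLC7A14, SLC36A2 and SLC36A3). A count of 0 allows up to 0.172 to 0.184 CPM in these libraries, taken as 3 counts of the total and covering counting error only. A further 8 had reads but did not pass the filter: SLC7A4 had 1 to 12 reads, and SLC1A2, SLC3A1, SLC7A9, SLC7A13, SLC38A4, SLC38A8 and SLC38A11 had 0 to 3. The remaining 26 were tested. Of these, SLC1A3 reached the filter's count in siFUBP1 samples only, so that it could enter only as a higher gene. SLC38A3 reached it in all 3 siMock samples but in only 1 siFUBP1 sample, so it entered through siMock, the group where it was higher. Calls required an adjusted p under 0.05 together with a log2 fold change beyond 1 in either direction.

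Among the 26 tested members, 4 were called higher in siFUBP1 (SLC1A5, SLC1A3, SLC7A11 and SLC1A4) and 6 lower (SLC43A2, SLC7A7, SLC7A5, SLC38A3, SLC1A7 and SLC7A6). These 10 are 38.5% of the tested members, and 17.3% of all genes tested were called. In each direction, 15.4% of the tested members were called higher, beside 8.16% of all genes, and 23.1% lower, beside 9.13%. The higher share includes SLC1A3, which could enter only as a higher gene, and the lower share includes SLC38A3, which entered through its siMock samples. With the adjusted p alone, 10 members rose and 11 fell, 80.8% of those tested, where the share of all genes was 60.2% (30.1% higher and 30.1% lower). The CPM of the groups did not overlap in 21 members (80.8%), and in 63.9% of all genes tested. The median log2 fold change of the tested members was -0.13, beside 0.0020 for all genes, and the median of its absolute value was 0.84, beside 0.44.

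**Figure D1:**
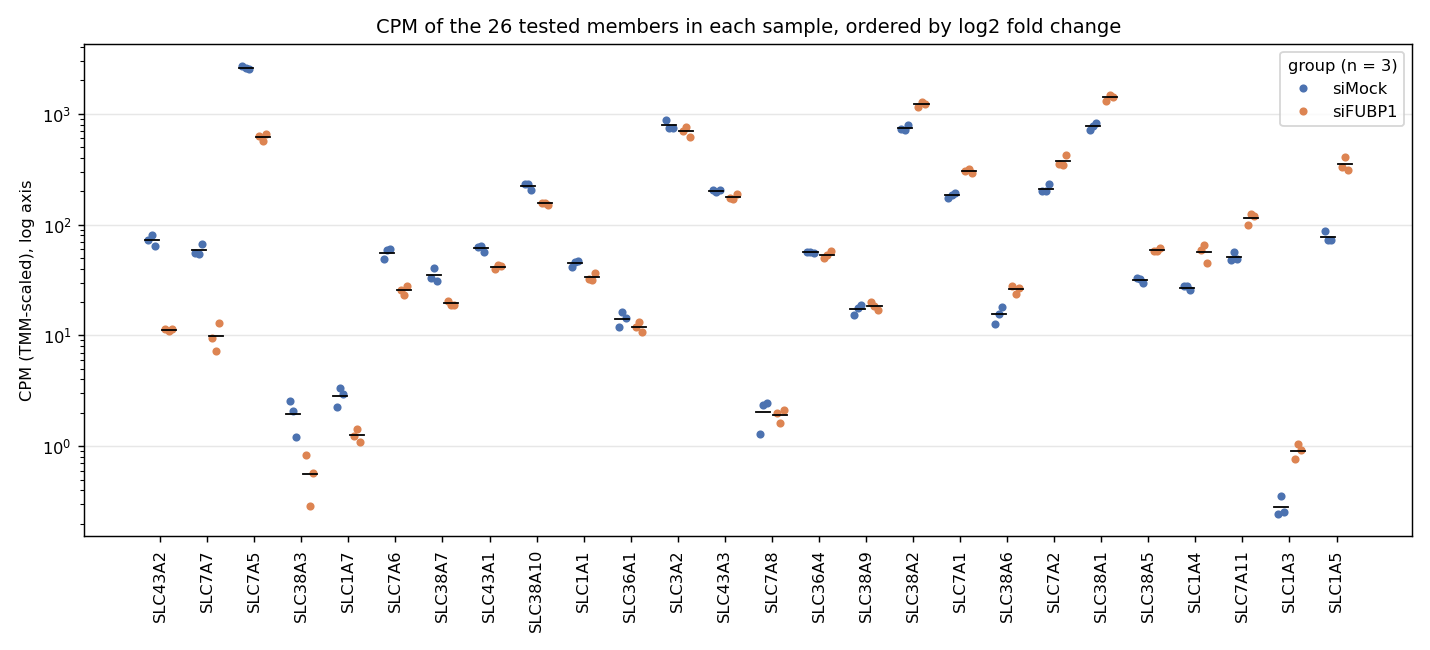
CPM of the 26 tested members in each sample on a log axis, ordered by log2 fold change from the most lowered to the most raised. Points are samples (3 siMock, 3 siFUBP1) and black bars are group means; SLC7A5 has the highest siMock level and falls from about 2606 to 614 CPM, while SLC1A5 rises from 77.9 to 350.4 CPM.

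The upstream promoter sequences of the strongly changed exchangers whose RefSeq start lies within 19 bases of the outermost GENCODE start are shown here, since these members moved in opposite directions. Each is the 250 bases before the RefSeq start (build GRCh38.p14), 5′ to 3′ on the gene's strand, and capitals mark matches to any of 3 motifs searched on both strands: TGATGNAA, a C/EBP-ATF response element bound by ATF4 with a C/EBP partner; TGACNNNGC, the core of the antioxidant response element bound by NRF2; and CACGTG, the E-box bound by MYC and its relatives. SLC7A5 and SLC7A6 fell, and SLC1A5 and SLC1A4 rose.
SLC7A5 (chr16:87869508-87869757, minus strand): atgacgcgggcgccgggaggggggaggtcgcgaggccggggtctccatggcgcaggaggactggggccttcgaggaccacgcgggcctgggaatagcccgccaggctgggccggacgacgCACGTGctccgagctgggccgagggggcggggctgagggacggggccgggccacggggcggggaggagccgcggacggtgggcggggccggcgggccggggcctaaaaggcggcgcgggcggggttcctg
SLC7A6 (chr16:68264276-68264525, plus strand): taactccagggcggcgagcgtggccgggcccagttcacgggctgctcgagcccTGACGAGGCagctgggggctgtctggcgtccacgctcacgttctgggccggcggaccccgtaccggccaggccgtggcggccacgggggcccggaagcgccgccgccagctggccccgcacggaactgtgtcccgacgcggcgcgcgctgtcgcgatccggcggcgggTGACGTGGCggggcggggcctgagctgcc
SLC1A5 (chr19:46788595-46788844, minus strand): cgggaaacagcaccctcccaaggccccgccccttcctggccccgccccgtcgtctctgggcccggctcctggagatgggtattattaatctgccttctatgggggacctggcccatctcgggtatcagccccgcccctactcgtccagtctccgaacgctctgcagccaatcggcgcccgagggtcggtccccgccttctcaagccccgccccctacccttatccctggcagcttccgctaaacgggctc
SLC1A4 (chr2:64988229-64988478, plus strand): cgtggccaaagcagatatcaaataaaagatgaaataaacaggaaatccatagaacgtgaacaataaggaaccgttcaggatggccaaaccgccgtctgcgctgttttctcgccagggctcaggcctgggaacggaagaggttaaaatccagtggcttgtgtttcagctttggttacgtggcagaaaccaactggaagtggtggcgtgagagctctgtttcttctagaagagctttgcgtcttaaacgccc

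The SLC7A5 window held a CACGTG beginning at position -130, where -1 is the base before the start, and the SLC7A6 window held TGACGAGGC at -197 and TGACGTGGC at -29. The SLC1A5 and SLC1A4 windows held none of the 3 motifs, which says only that these letters are not in these windows. RefSeq windows were matched for 31 of the 40 members, and 9, among them SLC7A11, had no entry in the table. Over the 31 members, TGATGNAA was found in 1 (3.23%), TGACNNNGC in 4 (12.9%) and CACGTG in 4 (12.9%). The shares of all 35116 promoters in the table were 3.14%, 10.9% and 6.34%. Among 14896 promoters of protein-coding genes, 1 per gene, they were 2.2%, 11.5% and 7.89%. No match in a member overlapped a match to another motif.

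The single upstream TGATGNAA was TGATGCAA at -220 of SLC1A3, in a window whose start lies 9767 bases from the outermost GENCODE start of that gene. When the 50 bases after the start were included, 4 members held this motif (12.9%). It was in 3.62% of all promoters and 2.5% of those of protein-coding genes. SLC38A1 has TGATGAAA beginning at -4, SLC7A1 has TGATGAAA at 8, and SLC3A2 has its reverse complement, read as TTACATCA on the gene's strand, at 38. SLC38A1 and SLC7A1 rose and SLC3A2 did not pass the test, and SLC1A3 could enter only as a higher gene. In the longer window CACGTG was found in 5 members (16.1%), with SLC38A7 added at 15. It was in 7.26% of all promoters and 8.94% of those of protein-coding genes. TGACNNNGC was in 5 members (16.1%, beside 13.3% and 14.3% in the same order), with SLC7A5 added at -2. Upstream CACGTG was present in 3 of the 9 members with a window that fell at the adjusted p (SLC7A5, SLC43A1 and SLC1A7), or 33.3%. Of the 8 with a window that rose, 1 held it (SLC38A5, 12.5%). Its share was 6.34% of all promoters and 7.89% of those of protein-coding genes. Upstream TGACNNNGC was present in SLC7A6 and SLC7A7, which fell, in SLC7A1, which rose, and in SLC3A2. The RefSeq start of SLC7A7 lies 10029 bases from its outermost GENCODE start, that of SLC3A2 25597 bases and that of SLC38A1 3501 bases. These are letter matches and not measured binding sites.

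The heavy chains came first. SLC3A2 (ENSG00000168003, chr11:62856102-62888875, plus strand, GRCh38), the CD98 heavy chain that carries most SLC7 light chains to the plasma membrane, had 883, 749 and 739 CPM in siMock and 695, 762 and 621 CPM in siFUBP1. The groups overlapped, since the second siFUBP1 sample was above 2 of the siMock samples. Its log2 fold change was -0.19 ± 0.09 (adjusted p = 0.070), which did not pass. Other settings moved it both ways: after correction for GC content and length it was -0.01, and it passed with the replicate number as a block (adjusted p = 0.017) and without the third siMock sample (0.037) or the second siFUBP1 sample (0.017). SLC3A1 (ENSG00000138079), the heavy chain used in kidney and intestine, had at most 3 reads in any sample and was not tested. Its exons share bases with PREPL on the opposite strand.

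Of the 8 light chains of SLC7, 5 were tested, and 3 fell, 1 rose and 1 did not pass. SLC7A5 (ENSG00000103257, chr16:87830023-87869488, minus strand), also known as LAT1, exchanges glutamine for leucine and other large neutral amino acids. It had 2682, 2583 and 2553 CPM in the siMock samples and 627, 563 and 654 CPM in the siFUBP1 samples. Every siFUBP1 sample was thus far below every siMock sample, and the change was -2.08 ± 0.09 on the log2 scale (adjusted p = 2.26e-16, edgeR), a level 4.24-fold lower. The pseudogene SLC7A5P1, a near copy, had 2 to 49 reads per sample against at least 9779 of SLC7A5, and adding these reads to SLC7A5 changed no call. An antisense gene, AC126696.2, shares 5.71% of its exonic bases.

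SLC7A7 (ENSG00000155465, chr14:22773222-22829820, minus strand), or y+LAT1, exports cationic amino acids in exchange for neutral ones. It had 55.5, 54.7 and 66.4 CPM in siMock and 9.40, 7.25 and 13.0 CPM in siFUBP1, with no overlap. The fall was 5.94-fold (log2 fold change -2.57 ± 0.16, adjusted p = 2.51e-09). SLC7A6 (ENSG00000103064, chr16:68264516-68301823, plus strand), or y+LAT2, performs a like exchange, and it had 49.1, 58.8 and 59.9 CPM in siMock and 25.5, 23.4 and 28.0 CPM in siFUBP1. Its groups were also separate, with a log2 fold change of -1.13 ± 0.10 (adjusted p = 2.83e-10), but 44.4% of its exonic bases are shared with SLC7A6OS on the opposite strand. The library kit does not mark strand, so reads of these neighbours cannot be told apart.

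SLC7A11 (ENSG00000151012, chr4:138164097-138242349, minus strand), or xCT, imports cystine in exchange for glutamate and feeds glutathione synthesis. It moved the other way from the 3 light chains that fell, with 47.8, 56.6 and 49.1 CPM in siMock and 100.2, 124 and 119 CPM in siFUBP1. The rise was 2.24-fold (log2 fold change 1.16 ± 0.09, adjusted p = 3.22e-11), and the lowest siFUBP1 sample was above the highest siMock sample. Its antisense gene SLC7A11-AS1 covers 8.97% of its exonic bases. SLC7A8, or LAT2, had 21 to 40 reads per sample and a log2 fold change of -0.08 ± 0.30 (adjusted p = 0.836).

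Per length, in the deposited FPKM (reads scaled to gene length and library size), SLC7A5 made up 95.7% ± 0.43 (SD, n = 3) of the summed light chain level in siMock and 88.1% ± 1.11 in siFUBP1. The ratio of SLC7A5 to SLC3A2 was 3.32, 3.76 and 3.77 in the siMock samples and 0.984, 0.805 and 1.15 in the siFUBP1 samples. The mRNA of this light chain was therefore present at more than 3 times the FPKM of its heavy chain in every siMock sample, and at about the same FPKM in the siFUBP1 samples. All 8 light chains together gave 3.45 to 3.95 times the FPKM of SLC3A2 in siMock and 0.925 to 1.31 times in siFUBP1. SLC7A11 was below SLC7A7 in every siMock sample (4.90 to 5.83 against 10.6 to 12.8 FPKM) and above it in every siFUBP1 sample (10.3 to 12.9 against 1.41 to 2.52 FPKM).

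**Figure D2:**
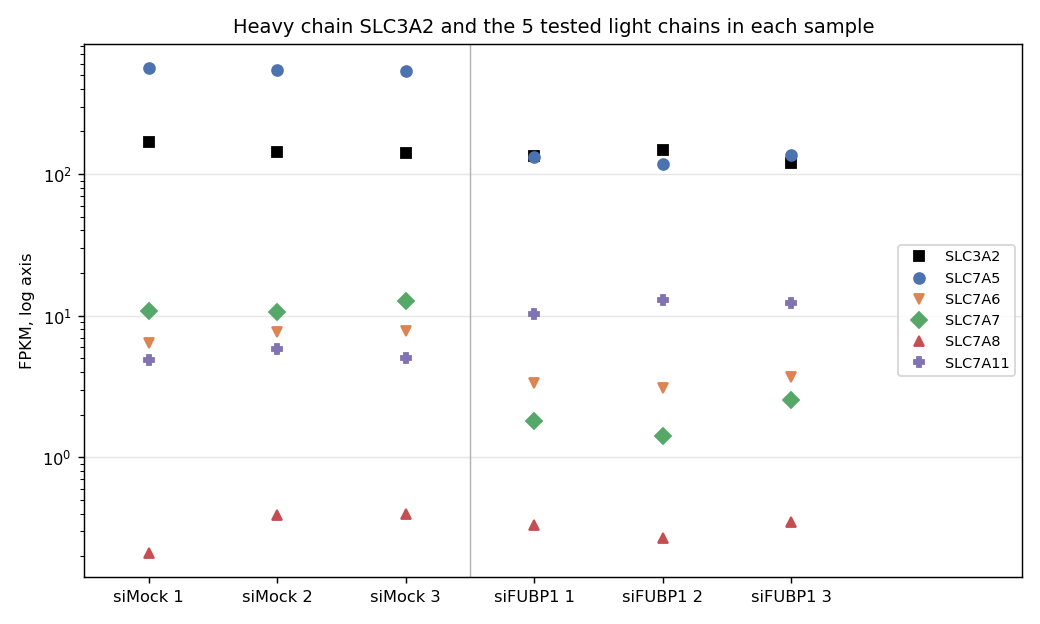
FPKM of the heavy chain SLC3A2 and of the 5 tested light chains of SLC7 in each of the 6 samples, on a log axis. SLC7A5 lies above SLC3A2 in the siMock samples (ratio 3.32 to 3.77) and beside it in the siFUBP1 samples (0.805 to 1.15), and SLC7A11 and SLC7A7 exchange places.

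The cationic amino acid transporters of SLC7, which work without a heavy chain and import arginine and lysine, rose in the 2 members tested. SLC7A1 (CAT1) had 184 ± 10.2 CPM in siMock and 305.5 ± 12.3 CPM in siFUBP1 (SD, n = 3), with a log2 fold change of 0.73 ± 0.08 (adjusted p = 7.00e-09). SLC7A2 (CAT2) had 211 ± 17.4 and 374.5 ± 46.1 CPM, with 0.83 ± 0.09 (adjusted p = 8.72e-09). In both genes the groups did not overlap, and neither reached the fold threshold. SLC7A4 was the untested member with the most reads, 36 over the 6 samples.

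Both neutral amino acid exchangers of SLC1 rose. SLC1A5 (ENSG00000105281, chr19:46774883-46788594, minus strand), or ASCT2, the main importer of glutamine in many dividing cells, had 87.9, 73.3 and 72.6 CPM in siMock and 331, 411 and 309 CPM in siFUBP1. No other tested member rose by as much in this fit: the log2 fold change was 2.17 ± 0.10 (adjusted p = 7.00e-14), a level 4.49-fold higher, with the groups far apart. An antisense gene, AC008622.2, shares 23.4% of its exonic bases. Relative to SLC7A5, whose exchange of glutamine for leucine uses glutamine taken up by such carriers, SLC1A5 had 0.0467, 0.0404 and 0.0405 times the FPKM in siMock and 0.752, 1.04 and 0.673 times in siFUBP1.

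SLC1A4 (ENSG00000115902, chr2:64988477-65023865, plus strand), or ASCT1, carries alanine, serine and cysteine. It had 27.7, 27.9 and 25.5 CPM in siMock and 58.9, 65.4 and 45.1 CPM in siFUBP1. All siFUBP1 samples were higher, and the log2 fold change of 1.06 ± 0.11 (adjusted p = 1.24e-08) lay just above the fold threshold. Without the second siFUBP1 sample, the highest of its group, it was 0.95, below that threshold though past the adjusted p.

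The glutamate transporters of SLC1 were weakly expressed apart from SLC1A1. SLC1A1 (EAAT3) fell from 44.8 ± 2.90 to 33.5 ± 2.81 CPM (SD, n = 3; log2 fold change -0.42 ± 0.09, adjusted p = 0.000376). SLC1A3 (ENSG00000079215, chr5:36606355-36688334, plus strand), or EAAT1, rested on 4, 6 and 4 reads in siMock and 13, 18 and 16 reads in siFUBP1. These counts gave a log2 fold change of 1.64 ± 0.48 (adjusted p = 0.00469) on levels near 1 CPM or lower. SLC1A7 (ENSG00000162383, chr1:53087179-53142632, minus strand), or EAAT5, a transporter best known from retina, had 37, 57 and 46 reads in siMock and 21, 25 and 19 reads in siFUBP1. Its log2 fold change was -1.18 ± 0.29 (adjusted p = 0.000901), which became -0.94 with the GC content and length correction. SLC1A2 had at most 2 reads and SLC1A6 none.

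In SLC38, 8 of 11 members were tested, of which 4 rose, 3 fell and SLC38A9 did not pass. The members that rose included both abundant sodium-coupled importers of small neutral amino acids and glutamine at the plasma membrane. SLC38A2 (SNAT2, ENSG00000134294, chr12:46358189-46372867, minus strand) had 735, 707 and 796 CPM in siMock and 1162, 1289 and 1217 CPM in siFUBP1. SLC38A1 (SNAT1, ENSG00000111371, chr12:46183063-46270017, minus strand) had 714, 777 and 829 CPM in siMock and 1314, 1487 and 1430 CPM in siFUBP1. In each gene the lowest siFUBP1 sample was above the highest siMock sample, and the log2 fold change was 0.71 ± 0.08 for SLC38A2 (adjusted p = 3.64e-08) and 0.87 ± 0.09 for SLC38A1 (adjusted p = 2.08e-09). SLC38A5, a glutamine and histidine carrier of system N, rose from 31.7 ± 1.85 to 58.8 ± 1.81 CPM (0.89 ± 0.09, adjusted p = 2.16e-09). SLC38A6 rose from 15.5 ± 2.78 to 26.2 ± 2.29 CPM (0.76 ± 0.12, adjusted p = 5.78e-06).

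The SLC38 members that fell were SLC38A3, SLC38A7 and SLC38A10. SLC38A3 (ENSG00000188338, chr3:50205246-50221486, plus strand), like SLC38A5 a system N carrier of glutamine, had 42, 35 and 19 reads in siMock and 14, 5 and 10 reads in siFUBP1. The groups did not overlap, but the siMock samples spread over more than 2-fold, and the log2 fold change was -1.79 ± 0.40 (adjusted p = 0.000452). SLC38A7, which releases glutamine from lysosomes, fell from 34.8 ± 4.87 to 19.4 ± 0.894 CPM (SD, n = 3; -0.84 ± 0.11, adjusted p = 1.62e-07). SLC38A10 fell from 222 ± 14.8 to 155 ± 3.77 CPM (-0.52 ± 0.08, adjusted p = 1.89e-06), and with the GC content and length correction its log2 fold change was -0.15. SLC38A9, a lysosomal arginine transporter that signals to mTORC1, had 17.3 ± 1.79 CPM in siMock and 18.5 ± 1.56 CPM in siFUBP1 (0.10 ± 0.12, adjusted p = 0.478), with overlapping groups.

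All 3 members of SLC43 fell. SLC43A2 (ENSG00000167703, chr17:1569267-1628886, minus strand), or LAT4, a facilitated carrier of leucine, phenylalanine and other large neutral amino acids, had 72.5, 80.1 and 63.7 CPM in siMock and 11.4, 10.9 and 11.4 CPM in siFUBP1. The siFUBP1 samples differed little among themselves (SD 0.281 CPM) and lay far below siMock, a 6.41-fold fall (log2 fold change -2.68 ± 0.10, adjusted p = 4.28e-17). SLC43A1 (LAT3), with like substrates, fell from 61.0 ± 3.57 to 41.7 ± 1.77 CPM (-0.55 ± 0.09, adjusted p = 4.32e-06). SLC43A3, which carries purine nucleobases, had 202 ± 3.67 CPM in siMock and 178 ± 10.7 CPM in siFUBP1 (-0.18 ± 0.08, adjusted p = 0.042), and it missed the threshold under 9 of 17 other settings of the fit. A gene on its own strand, AP000781.2, shares 29.9% of its exonic bases.

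SLC36 had 2 tested members, SLC36A1 and SLC36A4, and neither passed in the reported fit. SLC36A1 had 14.1 ± 2.10 CPM in siMock and 12.0 ± 1.33 CPM in siFUBP1 (log2 fold change -0.24 ± 0.14, adjusted p = 0.130). SLC36A4 had 56.3 ± 0.291 and 53.4 ± 4.19 CPM (-0.07 ± 0.08, adjusted p = 0.465). In both the groups overlapped. SLC36A4 passed with the GC content and length correction (-0.22, adjusted p = 0.012), and SLC36A1 passed without the first siMock sample (-0.36, adjusted p = 0.032).

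**Figure D3:**
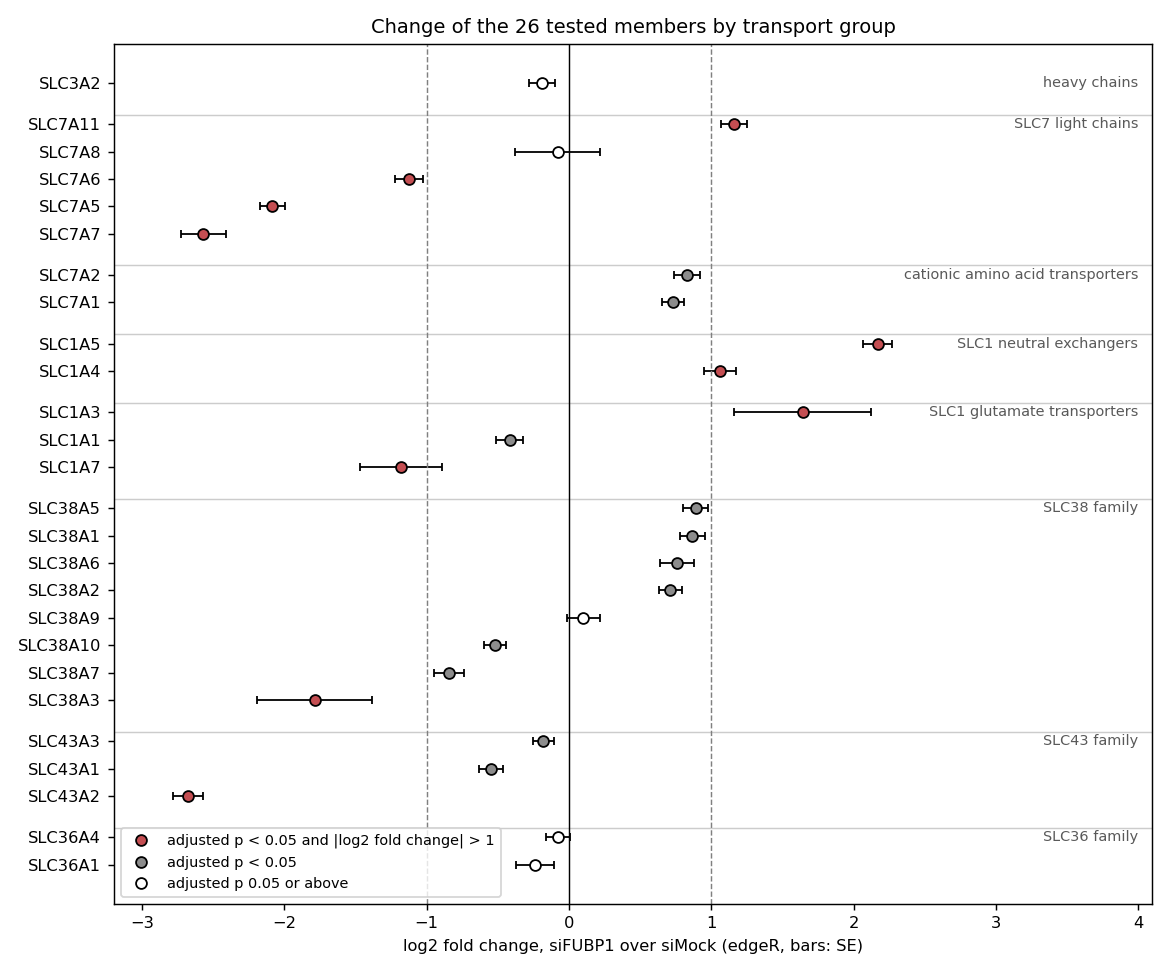
Log2 fold change of each tested member (siFUBP1 over siMock, edgeR) with its SE, grouped by transport group, with dashed lines at -1 and 1. Red marks called members, grey an adjusted p below 0.05 alone and white neither; SLC43 lies to the left of 0, the SLC1 neutral exchangers and the cationic transporters to the right, and the light chains and SLC38 on both sides.

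The order of the levels was then compared in FPKM, which allow genes to be set against each other per length. In siMock, SLC7A5 was highest with 560, 540 and 531 FPKM, and its range lay above that of every other member. SLC3A2 (169, 144 and 141 FPKM), SLC38A2 (110, 106 and 119 FPKM) and SLC38A1 (70.6, 77.0 and 81.7 FPKM) followed, then SLC43A3 at 43.4 to 44.7 FPKM, and no neighbours among these 5 overlapped. SLC1A5 ranked 9 at 21.5 to 26.1 FPKM and was not separated from SLC7A1 at 22.2 to 24.7 FPKM. In siFUBP1, SLC38A2 was highest with 175, 195 and 183 FPKM. SLC38A1 (130, 148 and 142 FPKM), SLC3A2 (133, 147 and 119 FPKM), SLC7A5 (131, 119 and 137 FPKM) and SLC1A5 (98.6, 123 and 92.2 FPKM) came next. Each of these 4 overlapped its neighbour, so the order of neighbours was not resolved, though every SLC38A1 value was above every SLC1A5 value. Among the 22 highest members, 8 neighbouring pairs overlapped in siMock and 9 in siFUBP1, counting the last of them with the member below it.

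The summed FPKM of the 40 members was 1144, 1105 and 1108 in siMock and 888, 955 and 907 in siFUBP1. SLC7A5 alone made up 48.6% ± 0.557 (SD, n = 3) of this sum in siMock and 14.1% ± 1.47 in siFUBP1. Without SLC7A5 the sum was 575 ± 9.71 FPKM in siMock and 788 ± 42.8 FPKM in siFUBP1, so the fall of the total came with a higher level of the other members together. The share of SLC38A2 was 9.64%, 9.63% and 10.7% in the siMock samples and 19.7%, 20.4% and 20.2% in the siFUBP1 samples. For SLC1A5 the share was 2.07% ± 0.188 and 11.4% ± 1.39, while SLC3A2 held 13.5% ± 1.10 and 14.5% ± 1.21.

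**Figure D4:**
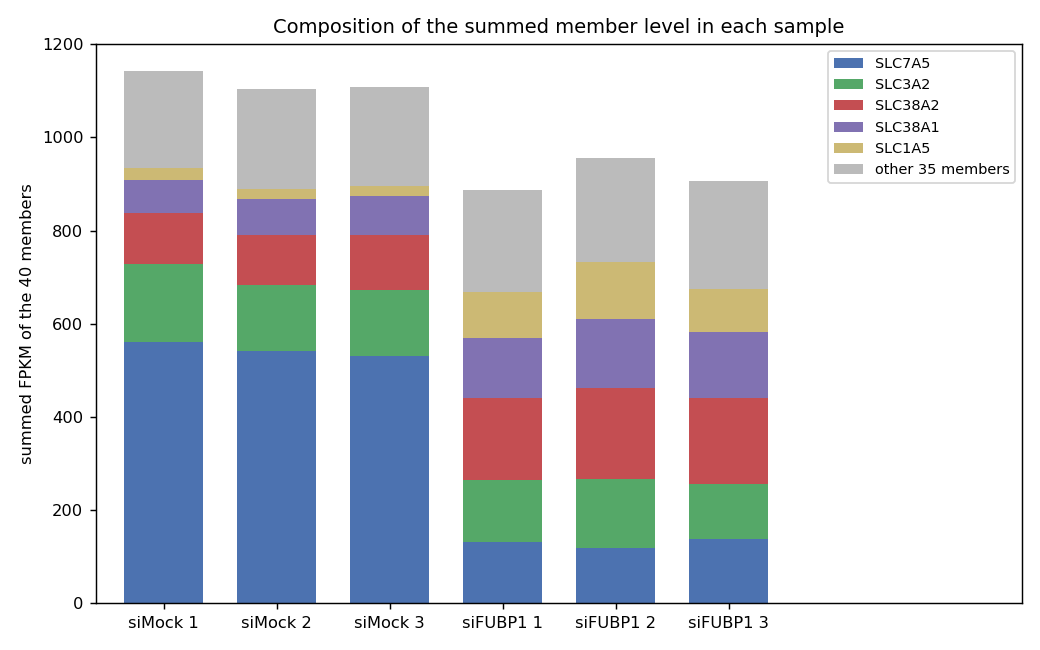
Summed FPKM of the 40 members in each sample, split into the 5 members with the highest mean FPKM and the other 35. SLC7A5 makes up 48.6% of the sum in siMock on average and 14.1% in siFUBP1, and SLC38A2, SLC38A1 and SLC1A5 take larger shares in siFUBP1.

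Other genes of amino acid transport and its control were read from 3 lists. Of 20 carriers of other families (SLC6, SLC15 and others), 9 were tested and 0 were called by edgeR in either direction; 2 rose and 3 fell at the adjusted p, the same numbers as at an unadjusted p below 0.05. These 5 are 55.6% of the list's tested genes, near the 60.2% of all genes, whereas 17.3% of all genes were called. DESeq2 called 1 of this list, lower. It was SLC6A19, an intestinal and renal carrier named after its values were seen, with 4 to 9 reads in siMock and 0 to 1 in siFUBP1. Of 12 mitochondrial amino acid carriers, 11 were tested, 0 were called by edgeR and 0 by DESeq2, and 4 rose and 2 fell at the adjusted p and equally at the unadjusted p, which is 54.5% and again near the share of all genes. The median log2 fold changes of these lists were -0.13 and -0.10. The tested genes of both lists lay between -0.92 and 0.88 on the log2 scale.

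Of 17 regulators of transporter genes and proteins, all were tested, 7 were called higher (41.2%, beside 8.16% of all genes) and 0 lower, by edgeR and by DESeq2. At the adjusted p, 13 rose (76.5%, beside 30.1% of all genes) and 0 fell, with the same counts at the unadjusted p. ATF4, the transcription factor of the amino acid response, had 2679 to 3063 reads in siMock and 6486 to 7209 in siFUBP1 (log2 fold change 1.19 ± 0.08, adjusted p = 1.64e-12, edgeR). Its partner and target genes NUPR1 (3.51 ± 0.17), DDIT3 (3.09 ± 0.17), TRIB3 (1.95 ± 0.10) and CEBPG (1.21 ± 0.08) rose, as did MYC (1.34 ± 0.09). CEBPB of the same list did not pass (0.17 ± 0.10, adjusted p = 0.174, edgeR), and its groups overlapped. The part of these regulators in the change of the transporters was not tested.

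The study lists 3 siRNAs against FUBP1, and a guide can lower other transcripts that match its seed (bases 2 to 8) in the 3′ UTR. The 7-base match to the seed was found in 20.6% of 19347 3′ UTRs for the first siRNA, 13.3% for the second and 22.6% for the third. Of the called members that fell, SLC7A5 held 1 match to the second, SLC43A2 and SLC7A6 each held 1 match to the first and 1 to the third, SLC1A7 held 1 to the second and 1 to the third, SLC38A3 held 1 to the third, and SLC7A7 held none. Of those that rose, SLC7A11 held 1, 1 and 2 matches and SLC1A3 held 1 to the first, while SLC1A5 and SLC1A4 held none. No single seed was matched in all 6 called members that fell, and the part of seed matches was not tested.

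The calls were repeated under 17 other settings of the fit. SLC1A5, SLC7A11, SLC43A2, SLC7A7 and SLC7A5 were called in all 17. SLC7A6 was called in 16, SLC1A4 and SLC38A3 in 15, SLC1A3 in 14 and SLC1A7 in 12. The 3 called members with fewest reads, SLC1A3, SLC38A3 and SLC1A7, were not tested when a mean of at least 50 counts was required.

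**Figure D5:**
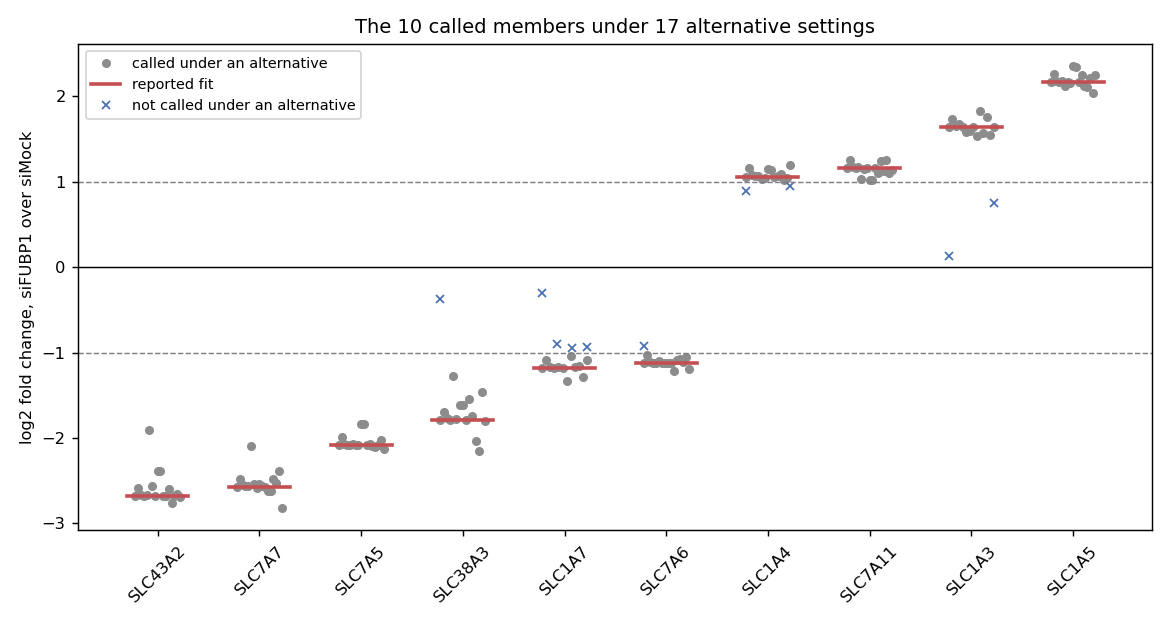
Log2 fold change of the 10 called members in the reported fit (red bars) and under each of 17 other settings, with grey points where the member was called and blue crosses where it was not, and dashed lines at -1 and 1. Points of SLC7A5, SLC7A7, SLC43A2, SLC7A11 and SLC1A5 all lie outside the dashed lines, and the crosses belong to SLC38A3, SLC1A7, SLC7A6, SLC1A4 and SLC1A3.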

How the data were processed

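The authors sequenced poly-A RNA from 6 samples on libraries made with a kit that does not mark strand. Their processing notes list HISAT2 2.0.5, StringTie 1.3.3b, featureCounts 1.5.0-p3 and DESeq2 1.16.1. The counts deposited by the authors are raw reads per gene; total counts per sample were 16309900 to 17484313. The FPKM values deposited by the authors divide these by gene length and a scaled library size. No build is named, but the coordinates of all 58735 genes match GENCODE release 29 (GRCh38). The deposited group means, log2 fold changes and p-values of the authors' own comparison were not used.

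Samples were grouped by their labels. The test on counts was edgeR 4.0.16 under R 4.3.3 (TMM factors, expression filter with the group, robust quasi-likelihood F test, Benjamini-Hochberg over 16116 genes). CPM use TMM-scaled library sizes. Calls required an adjusted p under 0.05 and a log2 fold change beyond 1 in either direction. An exact permutation test of 3 against 3 samples cannot go below 0.10, so none was used. No replicate pair was identical (chi-square per gene at least 5.87). Scripts were tested on simulated data. Alternatives were DESeq2 size factors, library size alone, no filter, a mean of at least 50 counts, DESeq2 1.42.0, limma 3.58.1 on log2(FPKM + 1) and log2(FPKM + 0.1), the replicate number as a block, a GC content and length correction (loess span 0.3), pseudogene reads added, and leaving out each sample.

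The members, the other gene lists and the markers were chosen with earlier results of these data known. Values in every sample are given for called members, SLC3A1, SLC3A2 and the 5 members with the highest mean FPKM. From each other list the called genes (at most 6 with the largest change) and ATF4 are named. CEBPB was named after its values were seen. Promoter windows are from RefSeq (GRCh38.p14). Seed matches were counted in GENCODE 3′ UTRs from the siRNA sequences the study lists.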

Additional observations from a re-analysis of the deposited data

How the results depend on the processing

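The count of members called higher was 2 and lower 3 with limma on log2(FPKM + 1), instead of 4 and 6; every member kept its direction there, and the pseudocount shrinks the fold of low genes. With the GC content and length correction, alone or with the replicate block, 5 were called higher and 5 lower: SLC38A5 was gained at 1.02 and SLC1A7 lost. The median log2 fold change of the tested members was -0.033 with library size alone, a scaling that shifted the median of all genes by 0.097. Leaving out each sample in turn gave 3 to 4 members called higher, 6 lower, 10 and 10 to 11 at the adjusted p, and a median of -0.15 to -0.10. Without the filter and with DESeq2, 1 carrier of other families was called lower, and 1 mitochondrial carrier was called higher with the GC content and length correction, alone and with the replicate block; in the reported fit both counts were 0. With the window that includes 50 bases after the start, 4 members held TGATGNAA.

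Among single members, SLC36A4 reversed to 0.022 with library size alone, and SLC7A8 reversed to 0.016 there, to 0.014 with the block and the GC content and length correction, and, with samples left out (range -0.33 to 0.064), without the second or the third siMock sample or the second siFUBP1 sample. Neither had passed the test. SLC43A3 lost the adjusted p under 9 settings, among them each sample left out except the third siFUBP1 sample. SLC3A2 passed the adjusted p with the replicate block (0.017) and without the third siMock sample (0.037) or the second siFUBP1 sample (0.017). SLC36A4 passed with the GC content and length correction (0.012) and with the block added to it (0.015), and SLC36A1 without the first siMock sample (0.032). The cause was not tested. FUBP1 was lower in every setting (-2.54 to -2.31).

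Same-numbered samples were not treated as pairs in the reported fit, since the labels do not say that a number marks a shared batch. Their deviations correlated at -0.0047 to 0.123, and 2 of 6 samples correlated best with their own number. These values cannot settle whether the samples were paired. With the replicate block, 4 members were called higher and 6 lower, and 10 and 12 passed the adjusted p. Low counts limit SLC1A3, SLC38A3, SLC1A7 and SLC7A8, whose reads range from 4 to 57 per sample.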
